A study of Mus musculus with 10 samples.

Results

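Mast cells and basophils are the cells that carry the high-affinity receptor for immunoglobulin E, and 10 of the genes that mark them were followed in irradiated mouse lung. The genes were chosen by symbol, with earlier results for irradiated pools against the control of the same time in view, and all 10 were found among the 45786 genes of the deposited tables. They fall into mast cell granule proteases (Tpsb2, Tpsab1, Mcpt4, Cma1 and Cpa3), proteases of basophils (Mcpt8 and Prss34), subunits of the receptor (Fcer1a and Ms4a2) and the transcription factor gene Gata2. Because that contrast chose the genes, their differences between irradiated and control lung are given as a description, with no test.

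The libraries came from whole-lung cell suspensions of C57BL/6J mice, an inbred strain, with 5 pools from mice given 12.5 Gy of γ-radiation to the whole thorax and 5 from age-matched mice given 0 Gy. Each treatment has 1 pool from each of 24 hours, 1 week, 4 weeks, 12 weeks and 32 weeks after exposure. Each pool held RNA of 3 mice, so a pool is 1 library with no replicate at its time. Before the authors' scaling the libraries held 8679551 (12-week control) to 17473034 (4-week irradiated) fragments. Values are in CPM, which divides counts by the library total after adjusting that total by a factor for each pool (TMM). Levels of different genes are compared in FPKM, which also divides by gene length. Markers of lung cells were present in every pool, with 8 endothelial genes summing to 376 to 980 CPM and 8 club and secretory cell genes to 4007 to 19676 CPM.

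Mast cells are long-lived tissue cells that store proteases, histamine and proteoglycans in granules and release them when antigen crosslinks the immunoglobulin E on their surface. In mouse lung they lie mostly around large airways and vessels. Basophils are short-lived blood cells with a similar receptor and some of the same granule genes. In bulk RNA, more cells of a type and more RNA per cell cannot be told apart.

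The mast cell proteases stood far above all controls in the 2 late irradiated pools. Summed over the 5 genes, irradiated pools held 24.2, 14.5, 20.7, 82.4 and 188 CPM in time order, and control pools 27.8, 26.6, 18.5, 33.9 and 24.7 CPM. The irradiated pool was thus at 0.871, 0.545 and 1.12 times its control at the 3 early times, at 2.43 times at 12 weeks and at 7.61 times at 32 weeks. Basophil proteases summed to 22.2 CPM in the 32-week irradiated pool and 7.1 CPM in its control, and at 12 weeks to 5.19 against 9.17 CPM.

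**Figure D1:**
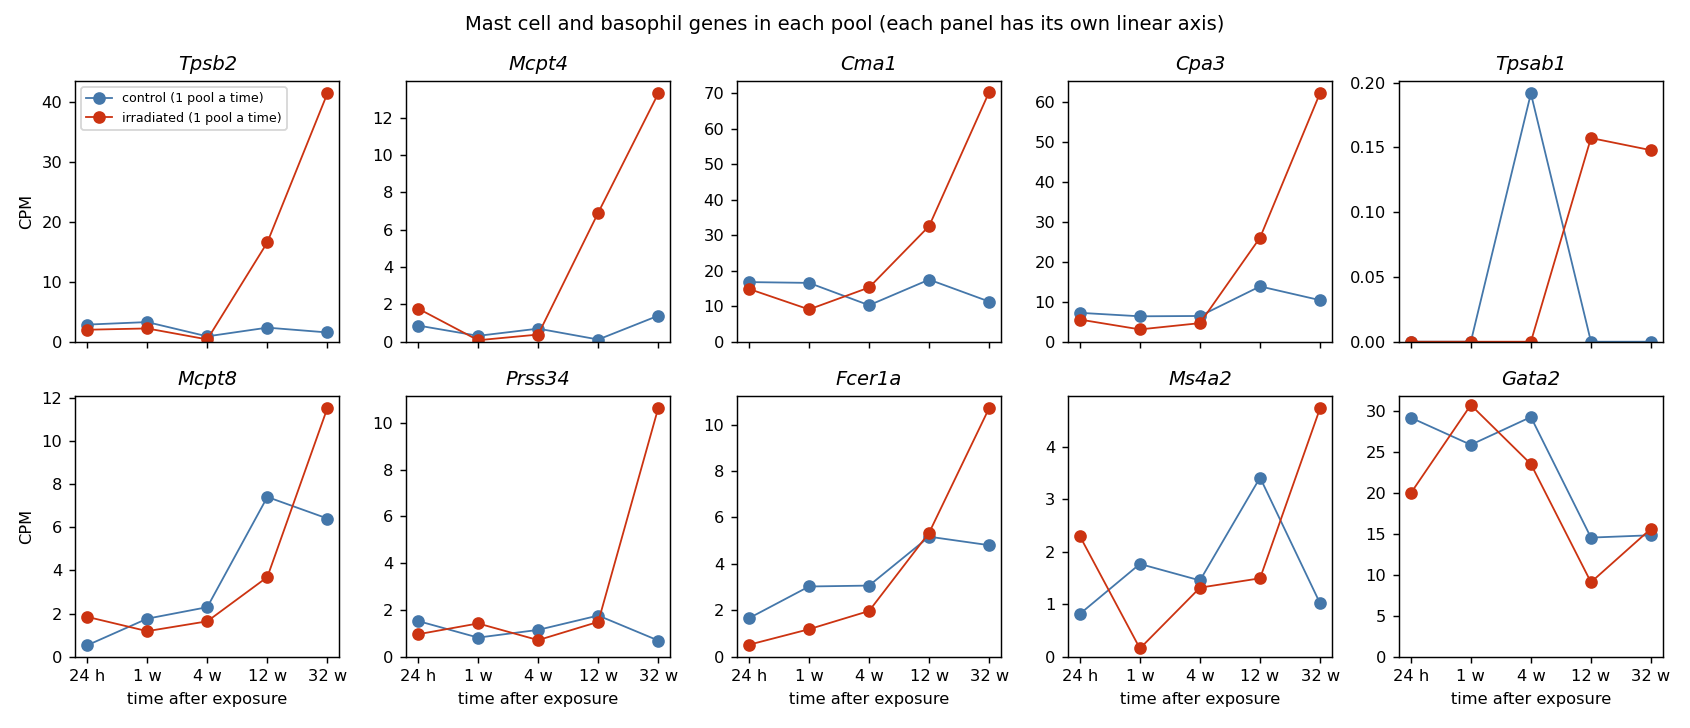
CPM (linear axis from 0, its own scale in each panel) of the 10 genes against time after exposure, with control pools in blue and irradiated pools in red. Each point is 1 pool. Tpsb2, Mcpt4, Cma1 and Cpa3 stood above all controls in the irradiated pools of 12 and 32 weeks, and Mcpt8 and Prss34 only in that of 32 weeks.

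Tpsb2 encodes the main tryptase of connective tissue mast cells (ENSMUSG00000033825, GRCm38 chromosome 17, 25366305 to 25369098, plus strand). Its irradiated pools were at 2.0, 2.22, 0.384, 16.6 and 41.5 CPM in time order, and its controls at 2.86, 3.28, 0.894, 2.35 and 1.55 CPM. The 4-week irradiated pool lay below every control and the pools of 12 and 32 weeks above every control. At 32 weeks 561 fragments in the irradiated pool stood against 29 in the control, a ratio of 26.8 (95% interval 18.4 to 40.4). These intervals are exact (Clopper-Pearson) and cover at most counting error, with no spread between mice, pools or libraries. They also take fragments as independent, although PCR copies count as fragments.

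Mcpt4 encodes a chymase regarded as the nearest working counterpart of human mast cell chymase (ENSMUSG00000061068, chromosome 14, 56059629 to 56062313, minus strand). Irradiated pools were at 1.78, 0.0792, 0.384, 6.92 and 13.3 CPM, and controls at 0.868, 0.315, 0.701, 0.118 and 1.39 CPM. The 24-hour pool also exceeded every control, with 24 fragments against 13 in its own control. The 12-week control held 1 fragment in the shallowest library, so its ratio of 58.8 has an interval from 10.3 to 2350. Against the mean of all 5 controls the 12-week pool was 10.2 times higher and the 32-week pool 19.6 times higher.

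Cma1 encodes a second chymase family member, which in the mouse cuts like an elastase (ENSMUSG00000022225, chromosome 14, 55941451 to 55944675, minus strand). It was at 14.9, 9.10, 15.3, 32.6 and 70.4 CPM in irradiated pools and at 16.8, 16.6, 10.3, 17.5 and 11.3 CPM in controls. The 1-week irradiated pool lay below all controls, and those of 12 and 32 weeks lay above them. Cpa3 encodes a carboxypeptidase stored in the same granules and also made by basophils (ENSMUSG00000001865, chromosome 3, 20215620 to 20242181, minus strand). Its irradiated pools held 5.56, 3.09, 4.66, 26.1 and 62.4 CPM, and its controls 7.25, 6.37, 6.45, 13.9 and 10.4 CPM. All 3 early irradiated pools lay below every control and both late pools above every control. At 32 weeks the ratio to the control of the same time was 6.23 for Cma1 (interval 5.36 to 7.26) and 5.99 for Cpa3 (5.12 to 7.04).

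Tpsab1 encodes another tryptase, whose transcript is known to be misspliced in C57BL/6 mice (ENSMUSG00000024173, chromosome 17, 25343245 to 25345562, minus strand). It had 3 fragments in the 4-week control, 2 in each of the irradiated pools of 12 and 32 weeks, and 0 in the other 7 pools. No fold is given for it, since both groups lay at or under a floor of 3 fragments.

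The make-up of the protease transcripts also differed between early and late irradiated pools. Cma1 took 63.6%, 64.9% and 77.1% of the summed mast cell protease FPKM in the early irradiated pools, 41.1% at 12 weeks and 39.1% at 32 weeks. Its share in controls was 63.1%, 64.8%, 59.3%, 56.1% and 49.2% in time order. Tpsb2 took 9.1%, 16.5% and 2.07% in the early irradiated pools and 22.3% and 24.6% in the late ones, above the 5.6% to 13.5% of the controls. Cpa3, at 27.1% and 28.4% in the late irradiated pools, stayed within the 20.4% to 37.2% of the controls.

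**Figure D2:**
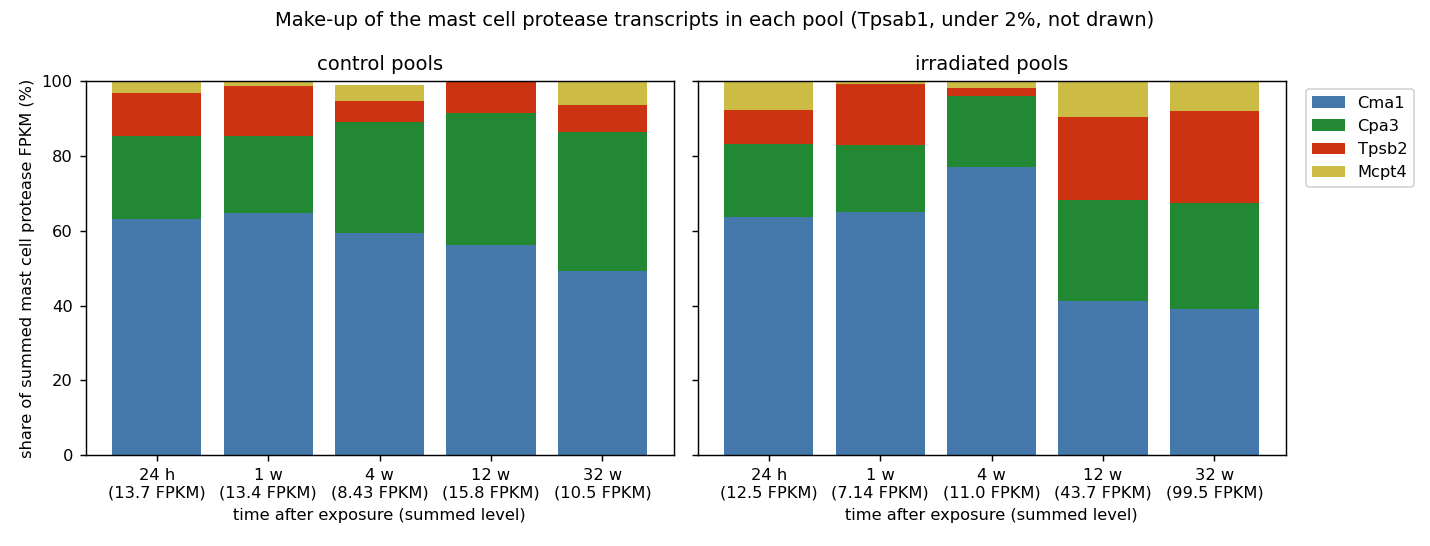
Share (%) of the summed mast cell protease FPKM taken by Cma1, Cpa3, Tpsb2 and Mcpt4 in each pool, with control pools on the left and irradiated pools on the right. The summed FPKM stands under each bar. In the irradiated pools of 12 and 32 weeks the Cma1 share is 41.1% and 39.1% and the Tpsb2 share 22.3% and 24.6%.

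Mcpt8 encodes a protease made by mouse basophils (ENSMUSG00000022157, chromosome 14, 56082166 to 56085273, minus strand). Controls held 0.532, 1.77, 2.30, 7.41 and 6.41 CPM in time order, and irradiated pools 1.85, 1.19, 1.64, 3.69 and 11.5 CPM. Its controls of 12 and 32 weeks were thus above the earlier controls, and the 12-week irradiated pool was at 0.499 times its control (interval 0.334 to 0.739). At 32 weeks the ratio was 1.80 (1.41 to 2.30). Prss34, a protease gene of basophils and some mast cells (ENSMUSG00000056399, chromosome 17, 25298394 to 25300165, plus strand), lay between 0.694 and 1.76 CPM in controls. Its irradiated pools held 0.963, 1.42, 0.712, 1.49 and 10.6 CPM. The 32-week pool stood apart from the other 9, at 15.3 times its control (8.69 to 29.5), while the 12-week pool lay within the range of the controls.

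Fcer1a encodes the subunit that binds immunoglobulin E (ENSMUSG00000005339, chromosome 1, 173221284 to 173227214, minus strand). Irradiated pools were at 0.518, 1.19, 1.97, 5.34 and 10.7 CPM and controls at 1.66, 3.03, 3.07, 5.17 and 4.81 CPM. The pools of 24 hours and 1 week lay below every control, at 0.312 (interval 0.114 to 0.742) and 0.392 times (0.204 to 0.712) the control of the same time. At 32 weeks the ratio was 2.23 (1.70 to 2.93). Ms4a2 encodes the signal-amplifying β subunit (ENSMUSG00000024680, chromosome 19, 11615523 to 11623719, minus strand). Its irradiated pools held 2.30, 0.158, 1.32, 1.49 and 4.73 CPM and its controls 0.815, 1.77, 1.45, 3.41 and 1.014 CPM. The 1-week irradiated pool had 2 fragments against 28 in its control (ratio 0.0896, interval 0.0103 to 0.356), and the 32-week pool was the only irradiated one above all controls.

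Gata2 encodes a transcription factor that mast cells and basophils need and that endothelium and blood progenitors also make (ENSMUSG00000015053, chromosome 6, 88193891 to 88207032, plus strand). It did not share the late pattern, with 19.999, 30.8, 23.6, 9.12 and 15.7 CPM in irradiated pools and 29.2, 25.9, 29.3, 14.6 and 14.9 CPM in controls. Both groups were lower at 12 and 32 weeks than before. The endothelial markers summed to 819, 649, 913, 542 and 452 CPM in the controls and to 744, 980, 678, 376 and 519 CPM in the irradiated pools. In both groups the highest Gata2 value and the highest endothelial sum were in the same pool, and the part of endothelium in the Gata2 level was not tested.

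At 32 weeks 10 of the 10 genes lay above the control of the same time (51.8% of the 15625 genes tested), 8 lay above all 5 controls (25.4% of genes tested) and 0 below all 5 (23.3%). The median log2 fold, from log2 CPM with a prior count of 2, was 2.31 over the 10 genes and 0.03 over all genes tested. The 10 include Tpsab1, at 2 fragments against 0, which was too low to be among the genes tested. At 12 weeks 6 lay above their control (50.2% of genes tested), 5 above all 5 controls (22%) and 1, Gata2, below all 5 (21.4%), with a median of 0.47. Both late irradiated pools were above all controls for 5 of the 10 (8.31% of genes tested), namely Tpsb2, Mcpt4, Cma1, Cpa3 and Fcer1a.

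The same counts for the early pools follow. At 24 hours 3 lay above and 6 below their control (49.6% of genes tested above), with 1 above all 5 controls (22.1%), 2 below all 5 (21.2%) and a median of −0.27. At 1 week 2 lay above and 7 below (52.6% of genes tested above), with 1 above all 5 controls (22.6%), 5 below all 5 (18.8%) and a median of −0.69. At 4 weeks 1 lay above and 9 below (53.3% of genes tested above), with 0 above all 5 controls (19.1%), 2 below all 5 (16.8%) and a median of −0.52. Since this contrast chose the genes, nothing is read from these counts.

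**Figure D3:**
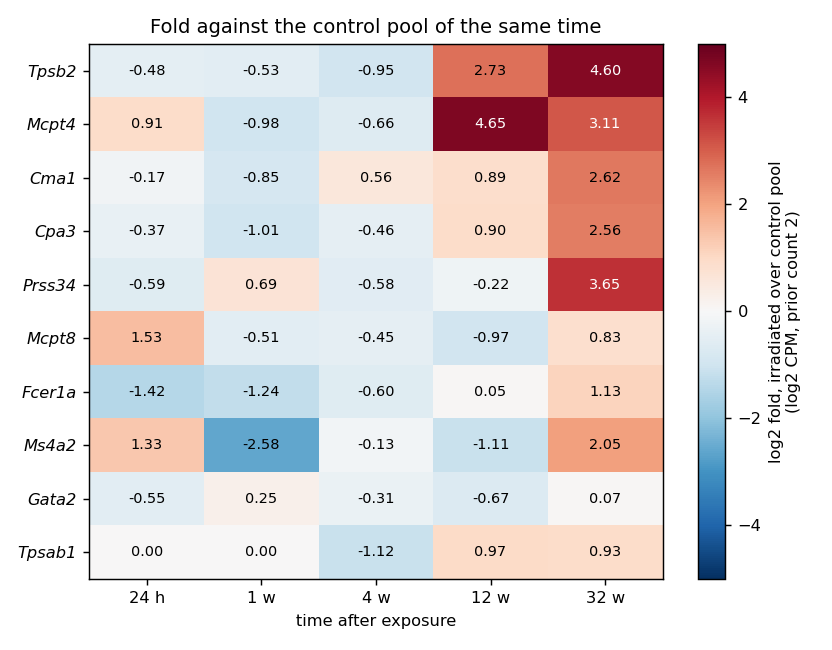
Log2 fold of each gene (rows) in the irradiated pool over the control pool of the same time (columns), from log2 CPM with a prior count of 2. Red is higher and blue lower in the irradiated pool. The 32-week column holds no value below 0, with Tpsb2 highest at 4.60 and Gata2 lowest at 0.07.

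A mean over the 5 times hid how the folds differed between them. Over the 9 genes that passed the filter on low counts, the median of the mean log2 folds was 0.33, and −0.17 without the 32-week pools. The mean log2 fold was 1.08 ± 2.47 for Tpsb2 and 1.41 ± 2.43 for Mcpt4 (SD, n = 5 pairs), so the spread between times exceeded the mean. Without the 32-week pools it changed sign for Cpa3 (0.33 to −0.23), Prss34 (0.59 to −0.17) and Mcpt8 (0.09 to −0.10). Mcpt4 reached 10 counts in 2 controls and 3 irradiated pools, so the late irradiated pools helped it to pass.

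In unirradiated lung the genes differed in level per length. By median control FPKM, Cma1 was at 8.61 (range 5.0 to 8.87), Gata2 at 6.46 (3.16 to 7.14) and Cpa3 at 3.02 (2.51 to 5.6). Below them lay Fcer1a at 1.44 (0.76 to 2.31), Mcpt8 at 1.41 (0.345 to 4.70), Tpsb2 at 1.28 (0.472 to 1.82) and Ms4a2 at 1.08 (0.499 to 1.59). Prss34 was at 0.579 (0.324 to 0.923), Mcpt4 at 0.353 (0.0616 to 0.663) and Tpsab1 at 0 (0 to 0.0979). Neighbours in this order overlapped in range, except Cpa3 and Fcer1a. In the 32-week irradiated pool the order began with Cma1 at 38.9, Cpa3 at 28.3, Tpsb2 at 24.5, Mcpt8 at 8.03 and Mcpt4 at 7.78 FPKM, and Gata2 was at 4.16.

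Change with time in the controls alone was not the contrast that chose the genes, and it was tested as a slope over log2 days in the 5 control pools. With edgeR 0 of the 9 genes tested passed, at a smallest adjusted p of 0.304. Unadjusted p lay under 0.05 for 3 of them, and DESeq2 called 1. Among all genes tested, 0.0064% passed with edgeR, 5.9% had an unadjusted p under 0.05 and DESeq2 called 0.403%. The 3 were Mcpt8, with a log2 slope of 0.49 ± 0.09 per doubling of days (SE; edgeR adjusted p = 0.304, DESeq2 adjusted p = 0.00404), Fcer1a with 0.21 ± 0.07 (edgeR adjusted p = 0.741) and Gata2 with −0.13 ± 0.05 (0.797). The adjusted p of the Mcpt8 slope ranged from 0.00404 with DESeq2 to 1 over 11 alternatives with edgeR, limma or DESeq2, with DESeq2 the lone one under the threshold. Slopes of the mast cell proteases lay between −0.12 for Tpsb2 and 0.11 for Cpa3, with adjusted p of at least 0.906.

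The proteases also share position. Cma1, Mcpt4 and Mcpt8 lie within 144 kb on chromosome 14 (GRCm38, 55941451 to 56085273), and Prss34, Tpsab1 and Tpsb2 within 70.7 kb on chromosome 17 (25298394 to 25369098). Other protease genes between them were nearly silent in controls. Mcpt1, Mcpt2 and Mcpt9 held 0 fragments over the 5 controls, Cma2 held 2, and Prss28 and Prss29 held 0 in all 10 pools. Mcpt1 and Mcpt2, proteases of mucosal mast cells, reached 8 and 10 fragments in the 32-week irradiated pool, and Mcpt2 reached 14 in that of 12 weeks. Of the stretches of 50 bases in GENCODE M21 transcripts, 5.48% of those of Mcpt4 occur in another gene (Cma2 or Mcpt9), 5.38% of those of Cma1 (Gm48934) and 2.1% of those of Ms4a2 (Ms4a4b). The other 7 genes shared none, so the tryptases Tpsb2 and Tpsab1 are told apart at that length. The read length is not given in the sources used here.

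Promoter sequences are shown because GATA factors and MITF are known to act at mast cell protease genes and because several of these genes were high in the same late pools. RefSeq's promoter table (GRCm38.p6, from 250 bases before to 50 after the gene start) held 9 promoters of 8 of the genes, Gata2 having 2. It held none for the tryptase genes Tpsb2 and Tpsab1, which were not examined. A GATA motif (GATAA or GATAG after A or T, on either strand) occurred in 6 of the 9, and in 29.8% of the 32817 promoters of the table. Capitals mark it in the sequences, which run 5′ to 3′ along the gene's strand.
Cpa3, chr3:20242132-20242431, minus strand: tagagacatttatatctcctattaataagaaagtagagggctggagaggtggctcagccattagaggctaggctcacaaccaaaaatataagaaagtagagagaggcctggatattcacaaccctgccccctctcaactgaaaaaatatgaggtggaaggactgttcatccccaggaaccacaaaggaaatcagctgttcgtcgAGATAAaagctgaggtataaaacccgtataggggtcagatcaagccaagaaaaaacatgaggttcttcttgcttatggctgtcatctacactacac
Cma1, chr14:55944626-55944925, minus strand: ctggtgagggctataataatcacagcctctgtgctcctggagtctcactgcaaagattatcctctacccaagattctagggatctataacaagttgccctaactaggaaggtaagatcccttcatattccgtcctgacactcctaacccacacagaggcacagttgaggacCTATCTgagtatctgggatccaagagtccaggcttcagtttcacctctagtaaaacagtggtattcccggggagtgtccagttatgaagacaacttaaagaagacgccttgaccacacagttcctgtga
Mcpt4, chr14:56062261-56062560, minus strand: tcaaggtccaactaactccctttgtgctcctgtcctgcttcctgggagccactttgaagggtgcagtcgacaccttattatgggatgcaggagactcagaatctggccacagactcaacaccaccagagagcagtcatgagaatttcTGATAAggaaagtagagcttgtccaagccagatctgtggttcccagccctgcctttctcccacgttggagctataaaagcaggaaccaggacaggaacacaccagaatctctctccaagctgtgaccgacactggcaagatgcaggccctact
Prss34, chr17:25298144-25298443, plus strand: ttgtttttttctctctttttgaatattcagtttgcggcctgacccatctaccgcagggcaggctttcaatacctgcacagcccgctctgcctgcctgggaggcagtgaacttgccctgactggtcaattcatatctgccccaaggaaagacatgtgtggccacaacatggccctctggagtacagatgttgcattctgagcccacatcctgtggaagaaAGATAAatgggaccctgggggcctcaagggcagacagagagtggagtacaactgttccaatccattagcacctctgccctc
Ms4a2, chr19:11623670-11623969, minus strand: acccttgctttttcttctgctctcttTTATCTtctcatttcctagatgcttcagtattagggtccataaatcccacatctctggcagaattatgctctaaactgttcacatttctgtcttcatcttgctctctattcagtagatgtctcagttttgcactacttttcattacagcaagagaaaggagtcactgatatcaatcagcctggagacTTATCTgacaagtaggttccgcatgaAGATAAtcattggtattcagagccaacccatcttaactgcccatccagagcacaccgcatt
The motif began 46 bases before the start in Cpa3, 79 in Cma1, 103 in Mcpt4 and 31 in Prss34, and Ms4a2 held 3 that do not overlap. Fcer1a had 1, at 92 bases before the start, and Mcpt8 and both Gata2 promoters had 0. CACATG on either strand, a form of the E-box that MITF binds, occurred in the promoters of Fcer1a and Prss34 and in 14.2% of all promoters. These letter matches describe the sequences, and no binding was measured.

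Other genes of mast cell and basophil biology were counted in 6 lists, which covered growth factors and alarmins, receptor signalling, granules and secretion, mediator synthesis, transcription factors and surface receptors. Of 88 genes listed 87 were found among the deposited genes, and 71 passed the filter on low counts. As means of the 5 times 51 lay higher and 20 lower in irradiated pools (median log2 fold 0.10, and 0.01 over all genes tested). With edgeR 0 passed over the 5 times (smallest adjusted p = 0.169), as for all genes tested (0%), while 15 had an unadjusted p under 0.05 and DESeq2 called 4, namely Adgre1, Ctsc and Ptgs1 higher and Lat lower. In that comparison DESeq2 called 1.65% of all genes tested, and 11.1% had an unadjusted p under 0.05 with edgeR. At 32 weeks the inhibitory and other surface receptors lay above the control of the same time for 10 of 10 genes (median log2 fold 0.62), mediator synthesis and histamine receptors for 8 of 10 (0.56), and granule and secretion genes for 9 of 11 (0.23). Of the other lists, receptor signalling lay above it for 6 of 14 genes (−0.03), growth factors, alarmins and their receptors for 6 of 15 (−0.19) and transcription factors for 5 of 11 (−0.33), where 51.8% of all genes tested did. Mediator synthesis and histamine receptors lay above the control for 10 of 10 at 24 hours as well (0.66).

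At single times each irradiated pool was tested against the 5 controls, whose differences in age count as spread. At 24 hours 1 of the 71 genes fell, where 0.442% of all genes tested fell, and at 32 weeks 1 rose, where 0.576% of all genes tested rose. DESeq2 called 2 lower at 24 hours (Fcer2a and Lat), and at 32 weeks 3 higher (Cd63, Cd200r1 and Ptgs1) and 2 lower (Il33 and Ccl11), against 3.48% and 5.48% of all genes tested. The one that fell was Fcer2a, the low-affinity immunoglobulin E receptor gene of B cells, at 29.4 CPM against 68.3 to 130 CPM in controls (log2 −1.79 ± 0.34 SE, edgeR adjusted p = 0.0441). That call was lost without the control of 1, 4, 12 or 32 weeks, at adjusted p = 0.0992, 0.06, 0.0692 and 0.0643, and with limma (0.0729 and 0.0567). The range of the adjusted p over 11 alternatives was 3.44e-06 to 0.0992. The one that rose was Cd63, a granule membrane gene that macrophages and many other cells also make, at 689 CPM against 226 to 396 CPM (log2 1.23 ± 0.23, adjusted p = 0.0489). It was lost without the control of 24 hours (0.0849), 1 week (0.112) or 32 weeks (0.0673) and with total count scaling (0.0754). Its adjusted p over 11 alternatives ran from 0.000517 to 0.112. Ccl11, the eotaxin chemokine gene, just missed the threshold with edgeR at 32 weeks, at 2.07 CPM against 7.22 to 11.6 CPM in controls (log2 −2.24 ± 0.44, adjusted p = 0.0548). It was called lower with DESeq2 (0.00039), with no filter (0.0271), with limma on both scales (0.0375 and 0.0429) and without the 4-week control (0.0325). At 1, 4 and 12 weeks 0 of the 71 passed with edgeR, against 0.0128%, 0.0512% and 0% of all genes tested. Unadjusted p under 0.05 were found for 8, 7 and 16 of them, against 9.52%, 7.17% and 10.7% of all genes tested. DESeq2 called 0, 1 (Il18, lower) and 1 (Rab27b, lower), against 1.61%, 0.608% and 1.52%.

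Growth factor and receptor genes differed among themselves. Kit encodes the receptor for stem cell factor that mast cells depend on and that some lung endothelium also makes. It was at 52.1, 57.4, 51.9, 49.4 and 29.3 CPM in irradiated pools and at 61.9, 49.2, 55.9, 42.2 and 33.4 CPM in controls. Kit was lowest at 32 weeks in both groups, with the irradiated pool at 0.878 times its control (interval 0.772 to 0.997). Its ligand gene Kitl was at 11.8 CPM in the 32-week irradiated pool and 14.4 CPM in its control. Il33, an alarmin that mast cells respond to, was at 119, 143, 102, 36.8 and 32.2 CPM in irradiated pools and at 90.1, 58.8, 62.6, 88.2 and 43.9 CPM in controls. It thus lay above all controls at the 3 early times and below them at 12 and 32 weeks, with edgeR adjusted p from 0.177 to 0.813 over the 5 times. DESeq2 called it lower at 32 weeks (adjusted p = 0.0329). Named after their values were seen, the receptor genes Il1rl1 and Csf2rb were high in late irradiated pools. Il1rl1, for the interleukin 33 receptor of mast cells and other cells, was at 12.1, 9.10, 8.11, 25.8 and 19.5 CPM irradiated and at 14.2, 22.5, 13.1, 14.2 and 10.8 CPM in controls. It lay below its control at the 3 early times and at 1.81 times its control at both late times, above all controls at 12 weeks, with edgeR adjusted p of 0.465 and 0.657 at 12 and 32 weeks. Csf2rb, the β chain shared by cytokine receptors of many myeloid cells, lay above all controls at 24 hours, 12 weeks and 32 weeks (267 and 314 CPM in the late pools, and 143 to 215 CPM in controls), with adjusted p of at least 0.128. Il3ra, for the interleukin 3 receptor that basophils use, stood at 5.74 to 9.11 CPM irradiated and 2.94 to 8.07 CPM in controls. The cytokine gene Il4 had 4 to 13 fragments in irradiated pools and 4 to 23 in controls, and Il13 had 0 in every pool.

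Fcer1g, the receptor's shared γ chain, was at 389 to 539 CPM in irradiated pools and 376 to 512 CPM in controls. Macrophages and other cells also make it. Hdc, which makes histamine and is active in several myeloid cells, was at 144, 173, 173, 63.8 and 164 CPM in irradiated pools, outside the 88.4 to 133 CPM of the controls at every time and below them at 12 weeks only. Its smallest edgeR adjusted p was 0.198, at 32 weeks. Cd200r3, a surface receptor gene of basophils and mast cells, was at 3.40 CPM in the 32-week irradiated pool, within the 1.60 to 4.47 CPM of the controls. Gata1, a transcription factor gene of basophils, mast cells and blood progenitors, was at 0.792 to 3.67 CPM irradiated and 0.465 to 2.12 CPM in controls.

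Listed genes with narrow mast cell expression were mostly too low for the filter, and those named here were picked after their values were seen. Mrgprb2, the receptor through which basic peptides and drugs activate connective tissue mast cells, had 26 fragments in the 32-week irradiated pool, 5 in that of 12 weeks and 0 in the other 8 pools. Mrgprb2 was at 12.0 times the 32-week control when that control was set at a floor of 3 fragments. Such ratios leave out the counting error of the irradiated pool, so they are not lower bounds. The family member Mrgprb1 also had 26 fragments in the 32-week irradiated pool, and 5 over the 5 controls. Tpsg1, a membrane-anchored tryptase gene, had 16 fragments in that pool, at 7.38 times the floor. Of the 50-base stretches of its transcripts, 7.6% occur in Cacna1h. In the same pool Mcpt2 was at 4.61 times and Mcpt1 at 3.69 times the floor. The other listed genes below the filter were mixed at 32 weeks. Ctsg (3 fragments against 12 in the control), Hrh4 (9 against 20) and Il4 (9 against 20) lay lower in CPM. Tph1 (34 against 21), Cma2 (3 against 1), Il5 (2 against 0) and Tal1 (7 against 8) lay higher in CPM. Il3, Il9, Il13 and Mcpt9 had 0 fragments in both pools. With no filter edgeR called Mrgprb2 and Cd63 higher (log2 7.52 and 1.20) and Ccl11 lower (−2.27) at 32 weeks, against 1.13% of the 27972 genes then tested. Mrgprb2 had 0 fragments in all 5 controls and was tested only without the filter. Its controls thus gave no spread of their own, and nothing is read from that call. With no filter 1 listed gene was called at 4 weeks (Il18, lower), against 0.111%.

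Markers of other cell types differed between the late pools too, and their part in the protease values was not tested. At 32 weeks ciliated cell markers summed to 1178 CPM against 630 in the control, with 8 of 8 higher, and club and secretory markers to 19676 against 12240 CPM, with 6 of 8 higher. At 12 weeks the same lists were at 467 against 529 CPM and 4322 against 8903 CPM, below the control. Airway cartilage genes, which would come with large airways, gave 32.4 against 21.4 CPM at 32 weeks, with 2 of 8 higher and 4 at 0 in the irradiated pool, and 10.5 against 11 CPM at 12 weeks. Over all times that list ranged from 7.05 to 21.4 CPM in controls and 6.73 to 32.4 CPM irradiated. Red cell genes were at 22270 against 7518 CPM at 32 weeks, with 5 of 5 higher, and at 38305 against 34582 CPM at 12 weeks. Eosinophil genes were at 259 against 284 CPM and 238 against 312 CPM, and adventitial fibroblast genes at 359 against 1005 CPM and 743 against 1251 CPM. Thymocyte genes were at 94.8 against 490 CPM at 32 weeks with 0 of 6 higher, and at 252 against 133 CPM at 12 weeks with 6 of 6 higher. No marker list had a ratio as high as the mast cell proteases at either time. The proteases were chosen with this contrast in view, so nothing is read from that order.

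**Figure D4:**
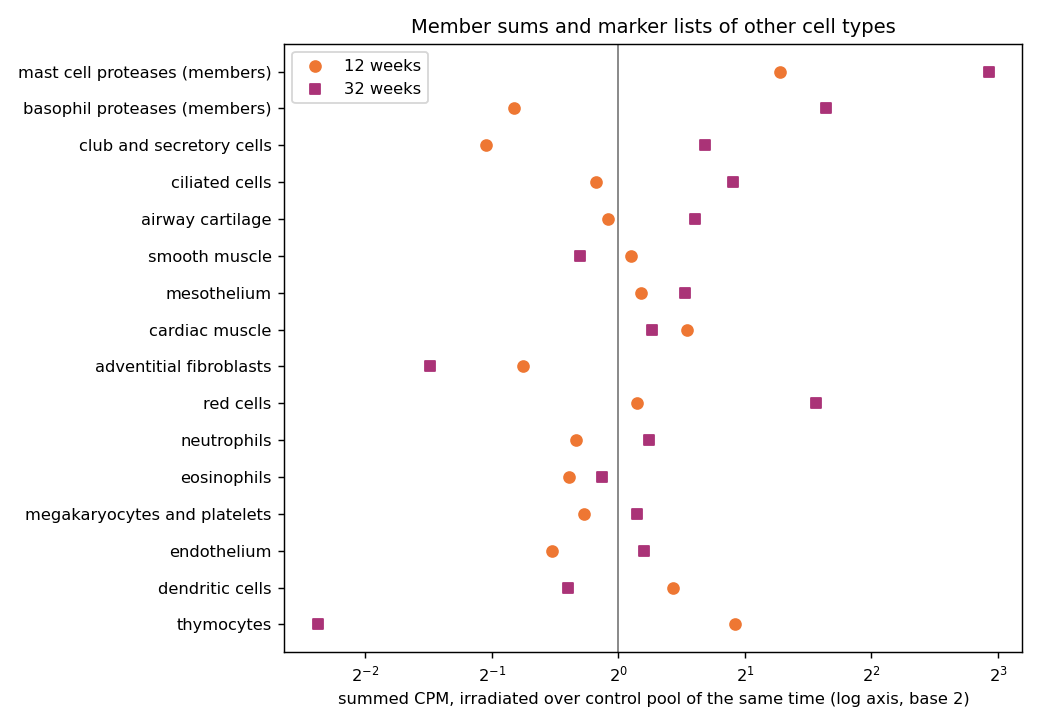
Summed CPM in the irradiated pool over that in the control pool of the same time (log axis, base 2) at 12 weeks (circles) and 32 weeks (squares), for the mast cell and basophil proteases and for 14 marker lists of other cell types. The grey line marks equal sums. The mast cell proteases, chosen with this contrast in view, lie farthest to the right at both times, at 2.43 and 7.61.

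Genes whose levels were most like those of the proteases over the 10 pools were described by Pearson's r of log2 CPM among 12365 genes of at least 50 counts on average. For the mean of the 4 mast cell proteases that passed the filter they were Kynu (r = 0.962), Acp5 (0.959), Psap (0.957), Lipa (0.918) and the immunoglobulin gene Igkv8-27 (0.915). Acp5, Psap and Lipa encode lysosomal enzymes or their activator, which macrophages make in quantity. Without the irradiated pools of 12 and 32 weeks r was 0.652, 0.566, 0.519, 0.65 and 0.138. For the mean of the 2 basophil proteases they were Igkv8-30 (r = 0.958), Igkv10-94 (0.946), 9430038I01Rik (0.934), Tubgcp2 (0.921) and Mr1 (0.921), and without those pools r was 0.873, 0.847, 0.805, 0.785 and 0.762. Between Cma1 and Cpa3 r was 0.903, and 0.454 without those 2 pools, and between Tpsb2 and Mcpt4 it was 0.757 and −0.097. Over the 6 pairs of these 4 mast cell proteases r lay between 0.757 and 0.903 over 10 pools and between −0.097 and 0.454 without those 2. Between Mcpt8 and Cpa3 it was 0.768 and 0.695. All genes of a pool share its library, and immunoglobulin segments can share reads with near copies.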

How the data were processed

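RNA sequencing libraries of 10 pools were used. For 45786 genes the authors deposited FPKM values and expected counts, which are estimates and need not be whole. Build GRCm38.p4 and the programs Cufflinks 2.0.2, Cuffdiff, STAR 2.4.2a and Trimmomatic 0.32 stand in the submitters' processing notes, with no order, and the annotation is not given in the sources used here. Low expected counts lay at multiples of a step of 0.58 to 1.38 that differed between libraries, so the deposited counts and the FPKM had been put on a common scale, and division by the step gave fragments. The kits, per the labels' protocols, do not mark strand and name no molecular identifiers. Symbols and coordinates came from GENCODE M21 (45137 identifiers matched).

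CPM used unrounded counts and TMM factors (0.933 to 1.086). Tests used counts rounded to whole numbers, genes passing filterByExpr by treatment at a minimum count of 10 (15625), and edgeR 4.0.16 quasi-likelihood F tests (robust, 2-sided) adjusted by Benjamini-Hochberg (threshold 0.05), checked on simulated data. Models were time as a block plus treatment, 1 irradiated pool against the 5 controls, and for the controls alone a trend with log2 days. Residual degrees of freedom were 4, 4 and 3. Pairs come from the labelled time. The p-values rest on differences between pools, a spread that mixes biological and technical spread. The single-pool test assumes that the lone pool varies like the controls. DESeq2 1.42.0 and limma 3.58.1 on log2(FPKM + 1) or (FPKM + 0.1) were alternatives. Low genes change less on the scale with 1 added than on that with 0.1 added.

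The genes, the lists and the tests were chosen with earlier results of these data known. The rule for naming other genes took those called (at most 5 per test and direction), always Kit, Kitl, Hdc, Fcer1g, Il33, Il3ra, Il4, Il13, Cd200r3 and Gata1, and the 5 most like each protease group.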

Additional observations from a re-analysis of the deposited data

Results flagged for a closer look

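In the group of 5 irradiated pools, the 32-week pool stood apart for Mcpt8, at 11.5 CPM with the next highest pool at 3.69 CPM. It also stood apart for Prss34, at 10.6 CPM with the next at 1.49 CPM. Among the controls, the 4-week pool stood apart for Tpsab1, at 0.192 CPM from 3 fragments, with the other 4 controls at 0. Each was picked out because its gap to the nearest pool exceeded Dixon's 95% critical value for 5 samples. That criterion marks about 1 in 20 groups by chance, and 20 groups were examined. The genes were chosen with irradiated pools against controls in view, so that rate does not hold for Mcpt8 and Prss34. The pools of a group come from different times, and time and pool cannot be told apart.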

How the results depend on the processing

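The mean log2 folds of the 9 genes kept their sign under all 63 values from other settings, which were scalings, a prior count, FPKM scales and no filter. The 63 include no filter, which cannot change a gene's value, and counts before the authors' scaling, which hardly changed it. The median of the mean log2 folds was 0.33, ranged from 0.26 with total count scaling to 0.46 with log2(FPKM + 0.1), and was 0.24 over all 10 genes. Leaving out 1 pair at a time gave −0.17 (without 32 weeks) to 0.57. Pools were paired by the labelled time, and without the replicate block the test over the 5 times also called 0 of the 71 listed genes. Calls of listed genes moved as follows. DESeq2 called 4 over the 5 times, 2 at 24 hours, 1 at 4 weeks, 1 at 12 weeks and 5 at 32 weeks, and 1 slope in controls (Mcpt8). limma called 0 at 24 hours and 2 at 32 weeks with either pseudocount. Total count scaling called 0 at 32 weeks, and no filter called 1 at 4 weeks and 3 at 32 weeks. Leaving out 1 control gave 0 to 1 at 24 hours and 0 to 2 at 32 weeks. Counts before the authors' scaling, an alternative chosen after seeing the data, moved no count of calls. For the other 80 of 101 comparisons of counts and medians with their main value, the alternative stayed within 1.5 times or 1 SD. That is a loose criterion. The SD used for the median was 1.37, so even the change of sign without 32 weeks lay within it. Many of the comparisons of counts set 0 calls against 0. Depth limits the genes with few fragments, above all Tpsab1, Mcpt4 and Ms4a2 in early pools, where 1 to 3 fragments decide a ratio. With 1 pool of 3 mice a time, no difference at a single time has a replicate.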
